A study of Drosophila melanogaster with 3 samples.

Results

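The dpr and DIP genes of Drosophila melanogaster encode small cell-surface proteins of the immunoglobulin superfamily. The 32 genes described here are the protein-coding genes of the Ensembl annotation whose name is dpr followed by a digit or begins with DIP-, 21 dpr and 11 DIP genes among 13945 protein-coding genes. Sites of the protein Eagle, an orphan nuclear receptor encoded by eg, were mapped by ChIP-seq, in which DNA bound by a protein is precipitated and sequenced. The animals were whole prepupae of the strain eg-GFP, with a labelled age of 2 day, that expressed Eagle fused to eGFP from an insertion, and the chromatin was sonicated and precipitated with an anti-GFP antibody. There were 3 biological replicates in 1 group, with no second condition, so no contrast could be tested and every comparison below is a description. All animals carried the tagged protein, and the labels do not say whether untagged Eagle was also present. Whole animals mix neurons with glia, muscle, epidermis and other tissues, so a site bound in few cells and a site bound weakly in many cannot be told apart.

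Each Dpr protein binds one or more DIP proteins on a neighbouring cell, and different neurons carry different members of the families. Matching pairs act in the choice of synaptic partners, in the layers of the optic lobe and at neuromuscular junctions, and in the survival of some neurons. Much of this wiring takes place as the adult brain forms in the pupa. Eagle itself is known for its part in serotonergic neurons of the nerve cord.

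The deposited data are lists of peaks, the intervals in which precipitated DNA was enriched. The list that the authors call conservative held 9369 peaks on the arms used, and the thresholded lists of the replicates held 6023 to 7476. The files hold no read counts, so depth is unknown. A gene was counted as having a summit, the highest point of a peak, if 1 lay in its body or within 1 kb of one of its transcription start sites (TSSs). The replicate lists and the conservative list draw on the same reads, so finding a conservative summit in a replicate list is not independent evidence. The signal of a peak is the authors' own measure of its strength and was used only to describe and rank peaks within a list. Whether its scale is shared by the replicates is not given, so the SD over replicates may also hold differences in scale.

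A conservative summit was present at 8 of the 32 genes (25%, exact 95% interval 11.5 to 43.4, counting error only), and the share of all protein-coding genes was 30.3%, a value inside that interval. These 8 were dpr2 (FBgn0261871), dpr6 (FBgn0040823), dpr10 (FBgn0052057), dpr14 (FBgn0029974), dpr20 (FBgn0035170), DIP-alpha (FBgn0052791), DIP-epsilon (FBgn0259714) and DIP-eta (FBgn0031725). A summit within 1 kb of a TSS was present at 5 genes, dpr10, dpr14, dpr20, DIP-epsilon and DIP-eta (15.6%, 5.28 to 32.8), against 27.2% of protein-coding genes. The shares of the separate families were 5 of 21 dpr genes (23.8%) and 3 of 11 DIP genes (27.3%). The 8 genes held 11 summits, of which DIP-alpha had 3, dpr6 had 2 and each of the others 1. Counting peaks at or above the median signal of the list, or giving each summit to the gene of the nearest TSS alone, left 5 genes in each case. No conservative summit lay at dpr1, dpr3, dpr4, dpr5, dpr7, dpr8, dpr9, dpr11, dpr12, dpr13, dpr15, dpr16, dpr17, dpr18, dpr19, dpr21, DIP-beta, DIP-gamma, DIP-delta, DIP-zeta, DIP-theta, DIP-iota, DIP-kappa or DIP-lambda.

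**Figure D1:**
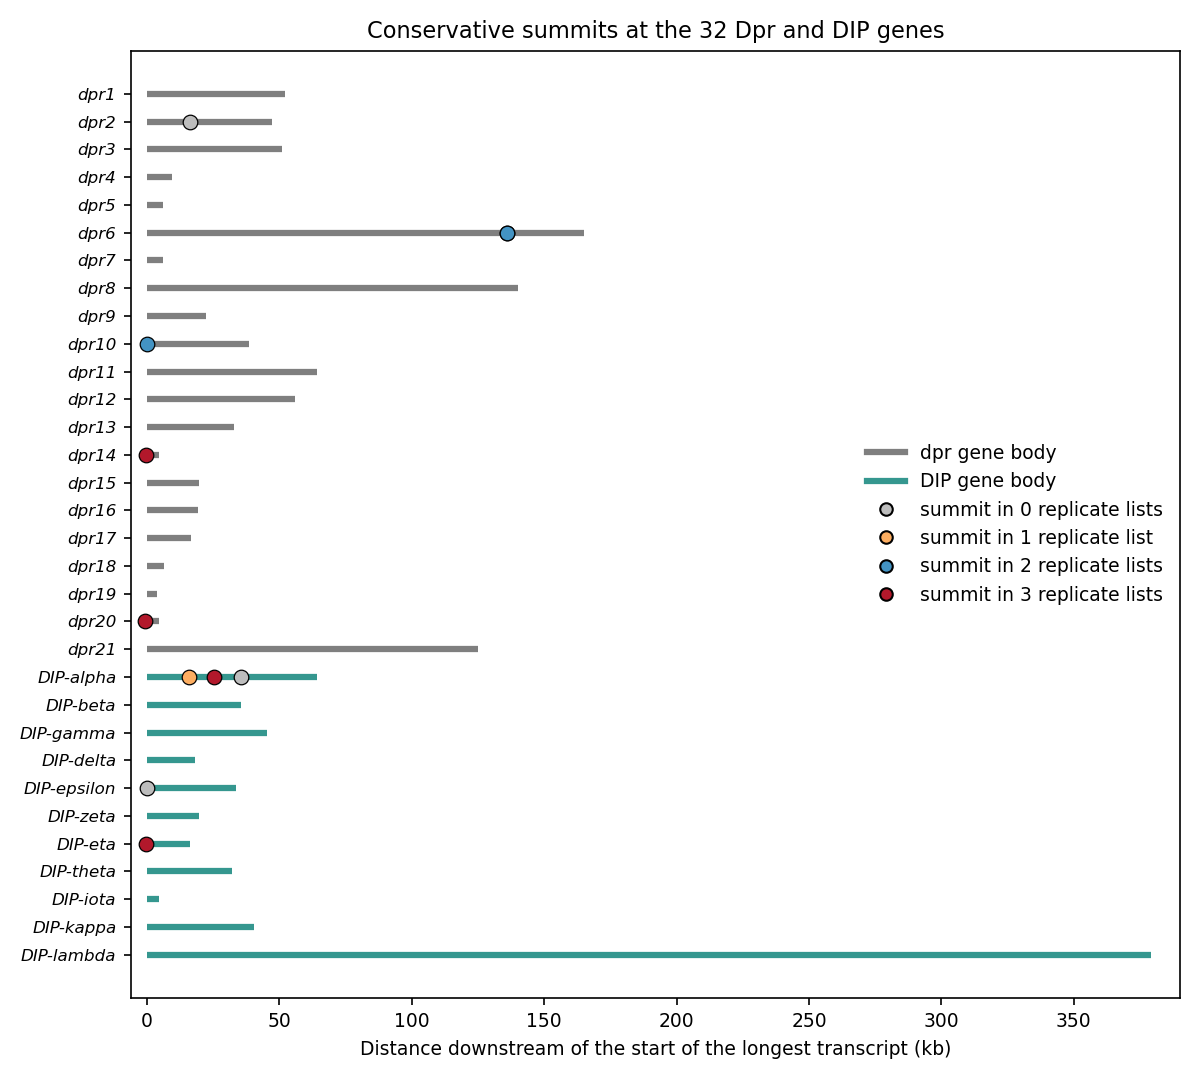
Each line is the body of 1 of the 32 genes, drawn from the start of its longest transcript on a scale in kb, and each point is a conservative summit, coloured by the number of thresholded replicate lists with an overlapping peak. The 8 genes with a summit include both short genes with a summit just before the start (dpr14, dpr20) and long genes with summits deep inside (dpr6, DIP-alpha), and most of the long bodies are empty.

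The summits at gene starts were those of dpr20, dpr14, DIP-eta, dpr10 and DIP-epsilon. The dpr20 summit was the strongest of the 11, with a conservative signal of 643 (rank 448 of 9369), in a peak at chr3L:857729-857950 on dm6. It lay 607 bp upstream of the TSS of dpr20, and the nearest TSS of another gene was 6.51 kb away. Its signal was 259 in replicate 1, 186 in replicate 2 and 215 in replicate 3 (220 ± 36.8, SD, n = 3). The peak thus had no closer annotated start than that of dpr20.

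The dpr14 peak was at chrX:7908604-7908781, with a signal of 341 (rank 1370). Its summit was 423 bp upstream of dpr14 but 222 bp from the TSS of spidey, an enzyme of lipid and steroid metabolism whose start faces the same interval. The replicate signals were 98.7, 111 and 116 (109 ± 8.87, SD, n = 3), the narrowest relative spread of the 11 summits. The peak cannot be assigned to one of these genes from its position.

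The DIP-eta peak was at chr2L:5618111-5618289, with a signal of 263 (rank 2004) and its summit 254 bp upstream of the TSS. The replicate signals were 69.5, 72.2 and 104 (82.0 ± 19.4, SD, n = 3), so replicate 3 was the highest. DIP-eta lies beside DIP-theta, which had no summit in its body and none within 34.6 kb of its TSS. With dpr20 and dpr14, DIP-eta completed the 3 genes whose promoter summit was found in all 3 thresholded replicate lists.

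At dpr10 and DIP-epsilon the summit fell in the first exon, at the start itself. The dpr10 summit, in a peak at chr3L:10185917-10186276 with a signal of 143 (rank 4437), was 11 bp downstream of the TSS. The DIP-epsilon summit, in a peak at chr2L:6411144-6411503 with a signal of 91.0 (rank 7060), was 2 bp downstream. It was also 991 bp from the TSS of the protein-coding gene CG13982. The dpr10 and DIP-epsilon summits were both weaker in the replicates than the 3 promoter summits above. At dpr10 the replicates gave 32.1, 59.2 and 53.0 (48.1 ± 14.2, SD, n = 3), and replicates 2 and 3 passed the threshold. At DIP-epsilon they gave 24.3, 27.8 and 35.4 (29.2 ± 5.68, SD, n = 3), and no replicate passed it.

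The other 6 summits lay in introns, all of them later than the first. The strongest was in DIP-alpha, in a peak at chrX:3546205-3546438 with a signal of 603 (rank 511), in intron 2 of 10 and 25.3 kb downstream of the start of the longest transcript. The replicates gave 245, 186 and 198 (209 ± 30.8, SD, n = 3), close to the values at dpr20. This summit was 205 bp from the TSS of a long non-coding RNA gene, CR34335, that lies inside the intron. Position therefore does not separate DIP-alpha from CR34335 as the gene at this peak.

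DIP-alpha had a weaker summit in the same intron at chrX:3555466-3555825 (signal 123, rank 5273), with 56.9, 28.3 and 40.1 in the replicates (41.8 ± 14.4, SD, n = 3). Replicate 1 alone passed the threshold there. This weaker summit was 16 kb from the closest TSS of DIP-alpha and 2.17 kb from the TSS of ppk8. A summit in intron 3, at chrX:3535758-3536117 (signal 72.3, rank 8090), lay 5.27 kb upstream of the second annotated TSS of DIP-alpha and was in no thresholded replicate list. DIP-alpha thus held both one of the strongest and some of the weaker sites of the families, in a single 64.4 kb body.

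The summits of dpr6 lay in its last intron, intron 6 of 6, which spans 97.8 kb, and 136 kb from the TSS. The stronger peak, at chr3L:10110353-10110712, had a signal of 135 (rank 4766), and replicate values of 42.7, 50.7 and 32 (41.8 ± 9.42, SD, n = 3), with replicates 1 and 2 past the threshold. The second peak, at chr3L:10110559-10110918 (signal 12.5, rank 9126), overlaps the first and the same replicate peaks, so the pair may count 1 site 2 times. The nearest TSS of another gene was 9.65 kb from the stronger summit.

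The dpr2 summit was in intron 2 of 7, 16.1 kb from the TSS, in a peak at chr2L:10947836-10948195 with a signal of 77.4 (rank 7846). Replicate signals were 13.1, 31.2 and 34.1 (26.1 ± 11.4, SD, n = 3), and no replicate passed the threshold. The window of 50 bases to either side of this summit is 10.9% G and C and holds an unbroken run of 71 A. A run of at least 20 of one base was found in 30 of 9369 conservative windows (0.32%). The part of such runs in the call was not tested.

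**Figure D2:**
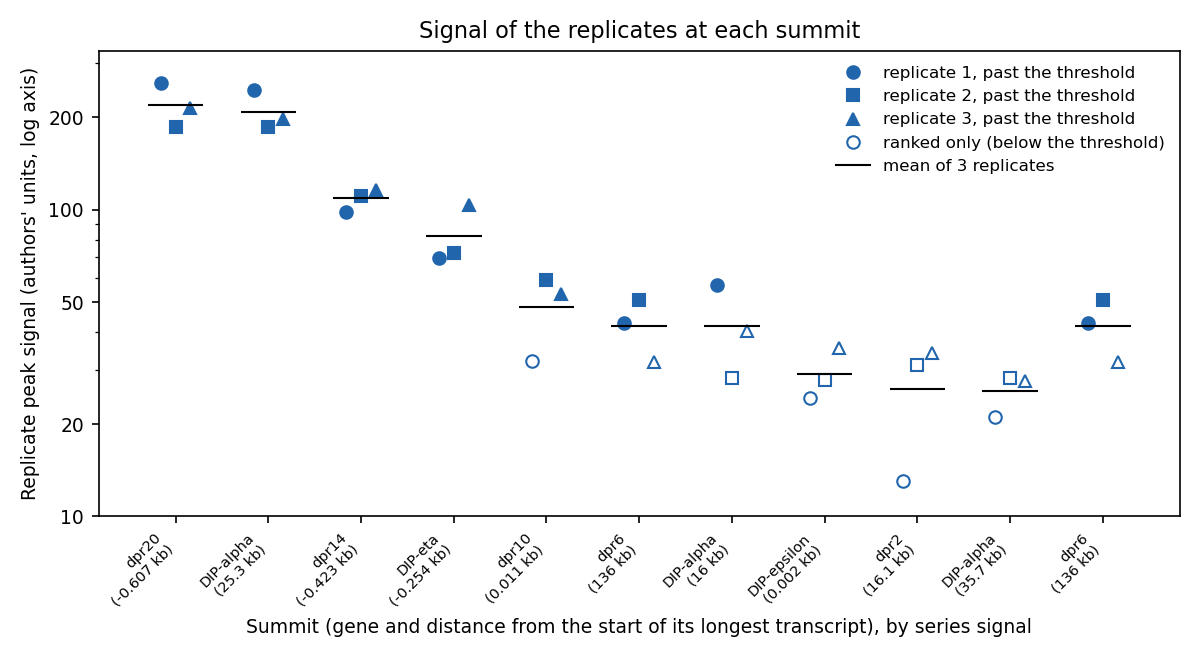
Signal of each replicate (authors' units, log axis) at the 11 summits in order of their conservative signal, with the mean of 3 replicates as a line. Filled symbols passed the replicate's threshold and open symbols are from the ranked list only. The first 4 summits lie above all others in every replicate, and the last dpr6 summit shares its replicate peaks with the stronger one.

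The sequences at the 8 strongest summits are shown because they are the DNA at which the families' sites were called. They come from the RefSeq genome sequence of release 6 (dm6), forward strand, 5′ to 3′, and each reaches 50 bases to either side of the summit. Capitals mark the summit and 5 bases on each side, with no motif implied. At dpr10 and DIP-epsilon the stretch before the exon is shown, so the dpr10 line does not reach the summit and the DIP-epsilon line holds only the edge of the capitals.
dpr20 (chr3L:857805-857905): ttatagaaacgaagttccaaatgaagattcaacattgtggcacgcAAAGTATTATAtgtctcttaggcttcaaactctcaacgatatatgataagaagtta
DIP-alpha (chrX:3546265-3546365): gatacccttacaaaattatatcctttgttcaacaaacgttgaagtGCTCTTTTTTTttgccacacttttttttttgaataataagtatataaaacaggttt
dpr14 (chrX:7908659-7908759): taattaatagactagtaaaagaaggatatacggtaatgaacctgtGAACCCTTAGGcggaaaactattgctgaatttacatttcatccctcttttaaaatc
DIP-eta (chr2L:5618150-5618250): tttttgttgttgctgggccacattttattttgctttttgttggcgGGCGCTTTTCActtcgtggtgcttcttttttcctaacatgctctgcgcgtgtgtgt
dpr10 (chr3L:10186109-10186147): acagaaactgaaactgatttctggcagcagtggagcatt
dpr6 (chr3L:10110483-10110583): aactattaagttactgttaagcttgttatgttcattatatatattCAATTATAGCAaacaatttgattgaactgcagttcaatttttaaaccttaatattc
DIP-alpha, weaker (chrX:3555596-3555696): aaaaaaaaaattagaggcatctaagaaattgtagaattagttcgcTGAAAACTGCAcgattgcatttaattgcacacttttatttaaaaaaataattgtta
DIP-epsilon (chr2L:6411327-6411374): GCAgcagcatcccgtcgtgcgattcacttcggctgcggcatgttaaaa

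The 11 windows had a median of 32.7% G and C, and all conservative windows one of 35.6%. Short strings were searched on both strands of these windows. TATTTAT was in 1 window, that of the DIP-alpha summit in intron 3 (9.09%), against 9.55% of all conservative windows. The GA repeat GAGAGAG was in 0 of 11 windows, which allows a share of up to roughly 27.3%, and in 3.71% of all. The string TAGAGCA was in 0 of 11 and in 0.736% of all, the nuclear receptor half-site AGGTCA in 0 and 1.76%, and the E-box CAGCTG in 0 and 3.47%. These shares are too small for 11 windows to show a difference. In the stretch from 250 bp before to 50 bp after each TSS, GAGAGAG was found at 5 of 41 TSSs of these genes (12.2%; dpr6, dpr9, dpr13, dpr20 and DIP-gamma) against 7.64% of all protein-coding TSSs. TATCGATA was found at 2 (4.88%; dpr14 and dpr17) against 7.99%, and TATAAA at 9 (22.0%) against 42.2%.

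These counts were then read against gene length. The median body was 32.5 kb in the families and 2.17 kb over all protein-coding genes, and longer genes more often had a summit. Under 10 kb, 2 of 8 genes had one (25%), near the 24.3% of all genes of that length. From 10 to 30 kb it was 1 of 7 (14.3%) against 63.4%, from 30 to 60 kb 3 of 11 (27.3%) against 70.0%, and from 60 kb up 2 of 6 (33.3%) against 74.8%. Of the 24 dpr and DIP genes of 10 kb or longer, 5 had a summit in the body, against 60.5% of protein-coding genes of that length. Among protein-coding genes of 10 kb or longer on arms with a summit, 52.2% had at least 1 TSS within 1 kb of one, with the number of TSSs per gene not matched. The only dpr and DIP genes of that length with a summit so near were dpr10, DIP-epsilon and DIP-eta. The short genes thus stood near other short genes and the long genes below other long genes, with 6 to 11 genes in each longer class.

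**Figure D3:**
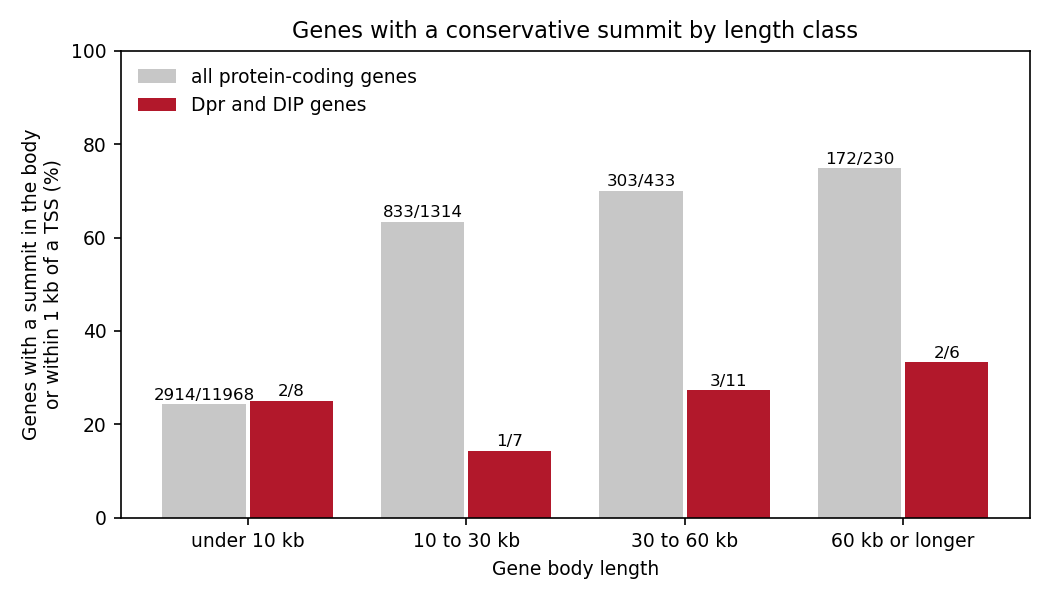
Percent of genes with a conservative summit in the body or within 1 kb of a TSS, by gene body length, for all protein-coding genes (grey) and the 32 dpr and DIP genes (red), with counts above the bars. The bars are alike under 10 kb (24.3% and 25%), and the red bars are lower in the 3 longer classes.

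Body summits numbered 8 in 1.58 Mb, 0.0506 per 10 kb, against 0.709 per 10 kb of all protein-coding bodies and 0.70 of the arms. At the pooled density of the genes in each length class, bodies of these lengths would hold 105 summits, and the observed number was 0.0762 of that. The ratio was 0.067 for dpr genes and 0.0883 for DIP genes. The median number per 10 kb was 0 both in the families and over all protein-coding genes, so the median does not show this difference. Per gene, DIP-alpha had the highest density (0.466 per 10 kb), followed by DIP-epsilon (0.298), dpr10 (0.259), dpr2 (0.212) and dpr6 (0.121), each from 1 to 3 summits.

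**Figure D4:**
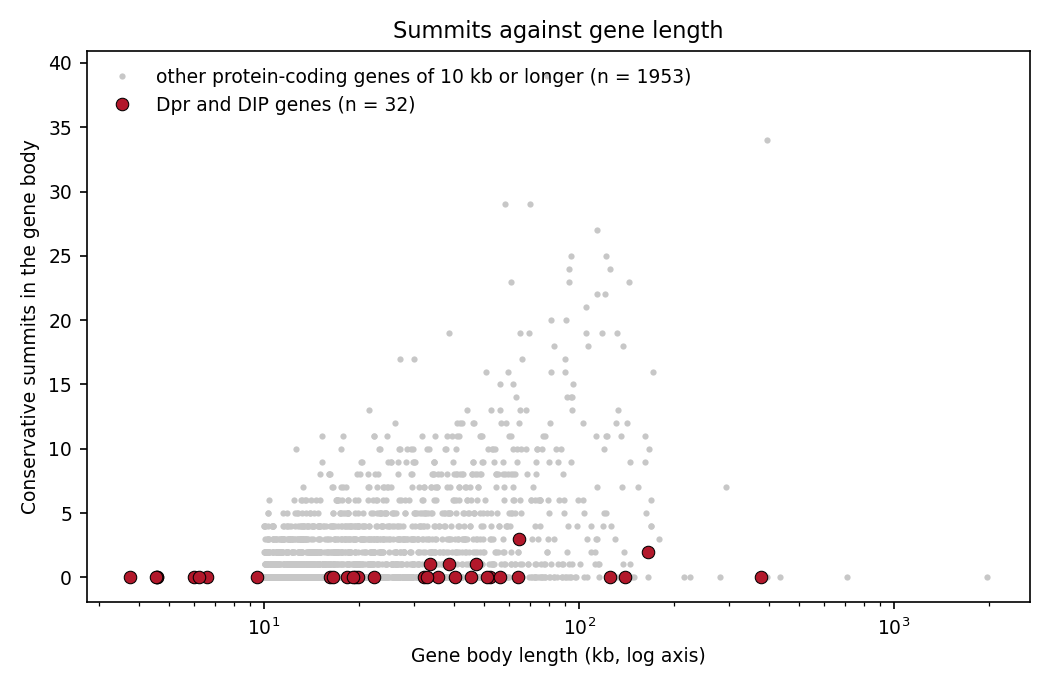
Conservative summits in the gene body against body length (kb, log axis) for the 32 dpr and DIP genes (red) and for other protein-coding genes of 10 kb or longer (grey). The red points lie between 0 and 3 summits over the whole range of lengths, along the lower edge of the grey points.

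Of the 11 summits, 6 were in introns (54.5%, exact interval 23.4 to 83.3), against 66.3% of the 7920 summits assigned to protein-coding genes. Both shares also count promoter summits outside the bodies. In the bodies, 6 of 8 summits were in introns, which make up 93.2% of the length of these bodies. First introns hold 18.9% of the intron length and held 0 of the 6. The share found in all 3 replicate lists was 4 of 11 (36.4%, 10.9 to 69.2) against 43.8% of the whole list, and 3 of 11 were in no replicate list against 16.4%. The median signal was 135 and that of the list 137. Few as they are, the summits were thus near the list in strength, and the intervals of the shares hold the values of the list.

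The surroundings were sparse as well. From the TSS to the nearest summit the median was 31.9 kb in the families (quartiles 9.47 and 60, 31 genes) and 5.06 kb over all protein-coding genes (quartiles 0.663 and 13.6). For genes of 10 kb or longer the medians were 34.7 kb in the families and 0.771 kb in all. Each distance is from whichever TSS of the gene lies closest to a summit, so more TSSs give more chances of a short distance. The number of TSSs per gene was not matched in these comparisons. A summit lay within 10 kb of a TSS at 9 dpr and DIP genes, and at 67.1% of protein-coding genes. Within 20 kb it was 13 of the 31 genes on arms with a summit, against 82.9% of protein-coding genes and 83.8% of those of 10 kb or longer, and the other 18 had none that near. The flanks of 20 kb outside the bodies held 43 summits in 1190 kb (0.361 per 10 kb), against 0.795 in the flanks of protein-coding genes of 10 kb or longer. Within the bodies lie 64 TSSs of 61 other genes, with the largest numbers in DIP-theta (19) and dpr6 (10). Of these TSSs 1 (1.56%), that of CR34335, was within 500 bp of a summit, against 20.3% of all TSSs. A promoter summit was found at 0 of 23 nested protein-coding genes, which allows a share of up to roughly 13%.

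**Figure D5:**
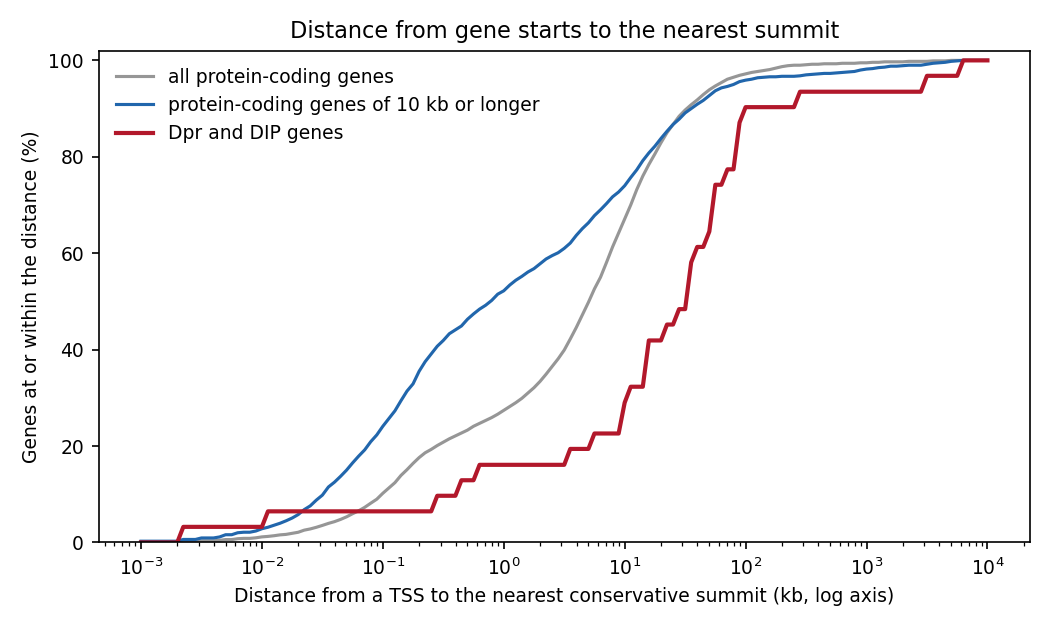
Cumulative percent of genes with any TSS within a distance (kb, log axis) of a conservative summit, for 31 dpr and DIP genes (red), protein-coding genes of 10 kb or longer (blue) and all protein-coding genes (grey). The number of TSSs per gene was not matched. The red curve passes its median at 31.9 kb, to the right of the medians of the others at 0.771 and 5.06 kb. The gene dpr7 is left out because chromosome 4 held no conservative summit.

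Some bodies lie where the list held no peak. Chromosome 4, with dpr7, held 0 conservative peaks, and the first summit on 2R was at 6.08 Mb, beyond DIP-lambda, dpr21 and dpr12. Of these 4 genes, dpr7 had 36.5% of bases soft-masked as repeats, DIP-lambda, the longest of the genes (379 kb), 33.8% and dpr21 (125 kb) 27.1%. In dpr12 it was 11.2%, below the family median of 17.8%. Outside these regions, dpr3 (30.3%, no conservative summit) and dpr2, which had a summit, were more masked than dpr21. The part of mappability in these gaps was not tested. Without these 4 genes, 8 of 28 had a summit (28.6%, against 30.6% of protein-coding genes outside the same regions), and the ratio to the density of their length classes was 0.106, still with 8 body summits. In the remaining 1.01 Mb the density was 0.0789 per 10 kb, so it stayed well under that of other genes without the summit-free regions.

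Few of the genes had peaks in the replicates' own thresholded lists. Replicate 1 had summits at 5 genes, replicate 2 at 6 and replicate 3 at 6 (5.67 ± 0.577, SD, n = 3), where the shares of protein-coding genes were 24.9%, 24.6% and 27.2%. The summits at the families numbered 7, 6 and 7 (6.67 ± 0.577, SD, n = 3). The ratio of body summits to the density of their length classes was 0.0606, 0.031 and 0.0365 (0.0427 ± 0.0157, SD, n = 3). In 4 genes, dpr14, dpr20, DIP-alpha and DIP-eta, a peak was found in all 3 replicates, and 25 had none in any. The matching shares of all protein-coding genes were not counted, so these numbers describe the dpr and DIP genes alone. With a conservative summit required in both other replicates, 5 genes had one without replicate 1, 4 without replicate 2 and 5 without replicate 3. The one gene with a replicate peak and no conservative summit was dpr3, with 1 peak in replicate 3.

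The longer ranked lists, which keep peaks that did not pass the threshold, held weak peaks at most of these genes. They had 71841, 47903 and 64387 peaks, with 28, 27 and 27 of the 32 genes holding at least 1, against 72.7%, 67.6% and 69.5% of protein-coding genes. In these lists the ratio to the density of length classes was 0.744, 0.439 and 0.534 (0.572 ± 0.156, SD, n = 3), and outside chromosome 4 and the start of 2R 0.921, 0.57 and 0.66. The ratio was thus nearer to 1 among all ranked peaks than among peaks past the threshold. No ranked peak lay at dpr7, dpr18, dpr19 or DIP-iota in any replicate.

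Among the 24 genes without a conservative summit, the strongest ranked peak of a gene had a signal of 11.3 to 33.4 in replicate 1 (median 16.6, 20 genes), 12.4 to 29.9 in replicate 2 (median 17.4, 19 genes) and 10.1 to 42.5 in replicate 3 (median 18.8, 19 genes). The upper end was dpr3 in each replicate. Of the thresholded peaks, 90.1%, 97.1% and 82.7% in the same order were stronger than dpr3's. Ranked peaks of replicate 1 that overlapped ranked peaks of both other replicates numbered 78 at 19 of the 32 genes, and 45.2% of protein-coding genes had such a peak. DIP-alpha (13), dpr6 (11) and dpr3 (10) had the most. In the bodies there were 73, against 278 at the density of their length classes, a ratio of 0.262 that lay below those of the full ranked lists. A conservative peak overlapped 12.8% of the 78 and 36.4% of such peaks in the whole genome, so most of the weak recurrent peaks here lay below the threshold of the series.

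The known receptor pairs differed in whether they held summits. DIP-alpha and its partners dpr6 and dpr10, which guide layer choice and survival of medulla neurons and contacts of motor neurons with muscle, each had at least 1 summit. The signals of their strongest summits were 603, 135 and 143. The summit of 603 lay 205 bp from the TSS of CR34335, so its position does not assign it to DIP-alpha. That of dpr6 lay 136 kb from the dpr6 TSS and 9.65 kb from that of CG42826, the nearest coding TSS. The bodies of dpr6 (to chr3L:10139360) and dpr10 (from chr3L:10147454) lie close together. DIP-gamma and its partners dpr11, dpr15, dpr16 and dpr17, which include the pair that joins R7 photoreceptors to amacrine neurons, had 0 summits in 5 genes. DIP-delta and dpr12, a pair needed for regrowth of mushroom body axons in the pupa, had 0 in 2 genes. All genes of these pairs are longer than 10 kb, and in their length classes 63.4% to 74.8% of protein-coding genes had a summit. The gene dpr12 lies in the summit-free start of 2R. The ranked lists held 6.95, 2.14 and 6.59 peaks per 10 kb of its body, and 5.37, 3.58 and 4.81 per 10 kb of all arms used. The families together had 4.03, 1.54 and 2.58, pooled over bodies that include DIP-lambda, the longest (0.844, 0.158 and 0.317). With so few genes per group, these are values of single genes and not a difference between pairs.

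Other surface proteins of the nervous system, in lists drawn up for this description, were counted by the same rule, beside the 30.3% of all protein-coding genes. The Beat and Side families, another receptor and ligand system of the immunoglobulin superfamily with a median body of 41.2 kb, had summits at 5 of 22 genes (22.7%). Their ratio to the density of length classes, 0.104, was of the same order as that of the dpr and DIP genes. A mixed list of other adhesion and wiring genes had summits at 20 of 27 (74.1%) with a ratio of 0.589, led by Fas3 (10 summits), Fas2 (8) and Ten-a (7). Immunoglobulin relatives, counted together with cDIP, which is not of that superfamily, had them at 5 of 7 genes (71.4%) with a ratio of 0.882. Of the 14 body summits of this list, 10 were in Nrg, the fly L1-type adhesion protein, which is made in epithelia as well as neurons. The longest relatives, CG34353 (138 kb) and klg (62.4 kb), had 0 and 1, so the ratio rests mostly on Nrg. Neuron markers had summits at 3 of 11 genes (27.3%) with a ratio of 0.139. A low density was thus not particular to dpr and DIP genes among these lists, and the part of neuronal expression in it was not tested.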

How the data were processed

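ChIP-seq of Eagle-eGFP from whole prepupae was deposited as peak lists on dm6, per the labels, with 3 biological replicates in 1 group. The authors deposited thresholded and ranked peak lists, filtered or ordered by the irreproducible discovery rate (IDR), per replicate and for the series. The signal of each peak is the authors' own deposited value. The sources used here do not give its normalization, the aligner or the peak caller. Columns of individual values in the ranked series lists were not used.

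Summits of the arms of chromosomes 2 and 3, of 4 and of X were placed on Ensembl release 115 (BDGP6, version 6.54), with sequence from RefSeq (release 6). A summit belonged to a gene if it lay in the body or within 1000 bp of a TSS. Introns are body positions in no exon of the gene, and the first intron is that of the longest transcript. Support is an overlap of at least 1 bp. Length classes were split at 10, 30 and 60 kb, and the density of a class is its summits over its total body length. Shares have exact Clopper-Pearson 95% intervals, which cover counting error only and treat neighbouring genes as independent. The upper limits given beside counts of 0 are instead an approximation, 3 divided by the number counted, which is a little below the exact limit. No test was run, since the series has 1 group. The assignment of summits was tested on simulated data.

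The genes given in full are the 5 with the most summits, the 5 of highest density, the 5 of highest signal and those with a promoter summit in all 3 replicates. Genes with no summit are named, and known binding partners were set side by side. The members, lists, motifs and tests were chosen with earlier results of these data known. Alternatives used other series lists, a signal minimum, other windows and overlaps, assignment to the nearest TSS and each replicate left out. The ratio to class density and its alternatives, the flanks, the ranked lists, the promoter strings and the single-base runs were added after the data had been seen. The possible control of the labels was not used here. Software was Python 3.11.15 with SciPy 1.17.1, pandas 2.3.3, NumPy 2.4.6 and, for figures, matplotlib 3.10.9.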

Additional observations from a re-analysis of the deposited data

How the results depend on the processing

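Of 98 alternative values, 69 stayed within the error or within 1.5 times the main count. The 3 other thresholded series lists put 8 to 10 genes with a summit against 8, and 7 genes had one in all 4 lists, while dpr2, dpr3 and DIP-kappa had one in only some. In the list of 11724 peaks the median signal was 92.3. Keeping conservative peaks at or above the median signal left 5 genes and 5 summits, with 20% in introns, 80.0% in all 3 replicates and a median signal of 341, and left 0.125 summits per gene in the replicate lists, against 0.208. Assignment to the nearest TSS left 5 genes and 5 summits, with 20% in introns and 0.0% at another gene's TSS, against 18.2%. With peaks required in both remaining replicates, leaving out each replicate gave 4 to 5 genes, 3 to 4 with a promoter summit, 4 to 6 summits, 20% to 50% in introns and a median signal of 302 to 472. The ratio to class density of 0.0762 became 0.0973 (11724 peaks), 0.0934 (8639 peaks), 0.04 (signal minimum), 0.106 (without chromosome 4 and the start of 2R) and 0.0199 to 0.0621 (leaving out each replicate), below 1 in each. The cause of these shifts was not tested. Windows of 100 bases to either side held TATTTAT at 1 of 11 and the other 4 strings at 0.

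No paired analysis was possible because there is 1 group. The comparison of protein sequences was not run, since no protein table was used here. Read depth is unknown, so how weak a site could be and still be listed cannot be given, and a count of 11 summits gives wide intervals.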

Other observations

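Markers of the cell types in a whole prepupa were counted by the same rule as the dpr and DIP genes, which 30.3% of all protein-coding genes met. Neuron markers had summits at 3 of 11 genes, with a ratio to the density of their length classes of 0.139 (3 body summits against 21.6). The RNA-binding protein gene elav had 2 summits, the stronger with a signal of 936, Rbp9 had 1 (signal 307) and the sodium channel gene para had 1 (signal 76.7). Glia markers had summits at 3 of 6 genes with a ratio of 0.96, which rests on only 3 body summits against 3.12. Of these genes moody, a receptor of the blood-brain barrier, had 2 summits. Muscle markers had summits at 3 of 6 genes with a ratio of 0.472 (7 body summits against 14.8). The muscle transcription factor gene Mef2 held 6 of those 7. Epidermis markers had summits at 5 of 6 genes with a ratio of 2.31, and the epidermal transcription factor gene grh alone had 11 summits where the bodies of the whole list held 14. These lists hold 6 to 11 genes each and were not tested against one another.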
